A study of Felis catus with 2 samples.

Results

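The table of expression values for the iridocorneal angle of cats held 32065 loci, of which 10603 carried no gene name. Of these unnamed loci, 7340 spanned at least 1000 bases on the genome build felCat5, which was 22.9% of all loci. They were taken by these criteria alone, which use no expression values, and are called unnamed loci here. The criteria were chosen with earlier results of these data known. A further 3263 loci without a name were shorter than 1000 bases, and 21462 loci had a name.

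Cufflinks assembles transcripts from aligned reads and then compares each assembled locus with an annotation. A locus that matches no annotated gene keeps an identifier beginning with XLOC and has no gene symbol. Such loci may be genes that the annotation of a draft genome missed, untranslated ends or antisense transcripts of known genes, unspliced precursor RNA, or long noncoding RNAs. A table of expression values alone does not tell these apart.

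Polyadenylated RNA was sequenced from 2 domestic cats, both 2 months old. One cat had primary congenital glaucoma, a recessive disease that in this colony segregates with a mutation of LTBP2, a matrix protein of the elastic microfibrils. The other was an unrelated healthy cat of the same age, named normal in the labels. The samples were labelled as iridocorneal angle, the drainage region at the base of the iris, and by the methods of the study also held ciliary body, trabecular meshwork and some sclera. Each condition was represented by 1 library, so that differences between them had no replicate check and no test was made.

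Both libraries held transcripts of the dissected tissue, with MYOC, a trabecular meshwork glycoprotein, at 150 FPKM in normal and 302 FPKM in affected. The 7 loci named for trabecular meshwork genes, MYOC among them, summed to 759 FPKM in normal and 634 FPKM in affected. Of these, 4 were at least 2-fold higher in affected and 3 at least 2-fold lower. FPKM is the number of sequenced fragments scaled to the length of the transcript, in kilobases, and to the depth of the library. The libraries also differed in the levels of marker genes of cell types. The 18 loci named for lens genes summed to 60116 FPKM in normal and 55052 FPKM in affected, the 16 for photoreceptor genes to 534 and 3611 FPKM, the 15 for genes of the corneal and conjunctival epithelium to 1346 and 361 FPKM, and the 13 for genes of stroma and sclera to 5677 and 1263 FPKM. The lens sums were close although 12 of 18 lens loci were at least 2-fold higher in affected and 2 lower, with a median log2 ratio (affected over normal) of 1.35. The crystallin gene CRYAA was listed at 0 in affected, so that the lens sum of affected holds nothing for it. The collagen gene COL1A2, of the stroma list, was listed at 0 in a library. The part of these differences in the values of unnamed loci was not tested.

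The unnamed loci had a median span of 3238 bases, against 25805 bases for named loci. An interval of the table could be listed for several loci at once. Of the unnamed loci, 5320 (72.5%) had an interval to themselves, 1078 (14.7%) were listed with exactly the interval of a named locus, and 942 (12.8%) shared theirs only with other unnamed loci. The listed interval was thus not the length of the transcript for every locus, and the median span was 2013 bases for loci with their own interval and 75357 bases for those listed with a named locus. The longest was XLOC_023012, on the 1616641 bases of PTPRD, a receptor tyrosine phosphatase gene, at chrD4:36230108-37846748. It was at 0.356 FPKM in normal and 1.29 FPKM in affected, and PTPRD itself was at 5.80 and 8.87 FPKM. XLOC_009027 followed, listed on the 1342723 bases of a locus named 5S_rRNA on chromosome B2, at 0.163 and 0.0583 FPKM. The third, XLOC_027954, spanned 1140639 bases of chromosome E3 with RBFOX1, a neuronal splicing factor gene, as a flank, at 1.25 and 1.36 FPKM.

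Low values fell on steps like those of whole fragments. The number of fragments and the bases taken off each span were not known, and were fitted to these same values so that they came out whole as often as possible. With 71240000 fragments in normal and 177 bases, 1315 of the 1361 values under 20 fragments of loci with their own interval of at least 1000 and under 2000 bases lay within 0.06 of a whole number (96.6%). In affected, with 67490000 fragments and 176 bases, 1267 of 1326 did (95.6%). Evenly spread values would do so in 12% without such a fit, so the comparison describes the fit and is no test. For spans from 3000 to under 10000 bases the shares were 58.8% and 38.6%.

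Unnamed loci lay on every assembled chromosome. Chromosome C1 held 598, A1 548 and A3 502, and the fewest of any autosome were the 213 on E3. Relative to named loci they were densest on F2, with 48.1 per 100 named loci, and sparsest on X, with 23.3 per 100. A further 258 lay on scaffolds assigned to a chromosome without a position, 114 on unplaced scaffolds and 1 on the mitochondrial sequence, which was listed at 0 in both libraries.

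Most unnamed loci were weakly expressed. Their median was 0.305 FPKM in normal and 0.341 FPKM in affected, where named loci had medians of 3.66 and 3.27 FPKM. At least 1 FPKM in a library was reached by 2039 of the 7340 (27.8%), close to the 28.3% of shorter unnamed loci and below the 63.9% of named loci. A mean of at least 5 FPKM over the libraries was reached by 553, a mean of at least 10 by 351 and a mean of at least 100 by 36. Only 10 were listed at 0 in both libraries, and 428 were listed at 0 in 1 of them. Together the unnamed loci held 4.64% of the summed FPKM of normal and 4.60% of that of affected. The 10 highest alone held 43.0% and 40.5% of this, and the 553 with a mean of at least 5 FPKM held 87.0% and 86.0%.

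The genes near the highest of them were read from the gene order of a later cat assembly, F.catus_Fca126_mat1.0, as annotated by RefSeq. A gene at the position of a locus is a description of its surroundings, and no sequence was compared. For each unnamed locus the nearest gene names on either side were looked up there, and the genes between them listed. A coding gene is called missing where no locus of the table was named for it. Coding genes with a symbol beginning with LOC were not counted as missing. XLOC_005380, at chrA3:4241987-4247025, was the highest by mean, at 7699 FPKM in normal and 5458 FPKM in affected. It lay 657 bases from SLMO2 (now PRELID3B), and the only gene between SLMO2 and TUBB1 in the later assembly is ATP5F1E, the epsilon subunit of mitochondrial ATP synthase. Its log2 ratio, log2((affected FPKM + 1)/(normal FPKM + 1)), was −0.50.

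XLOC_012706, at chrB4:85071437-85072883, was at 2157 and 1817 FPKM. It lay between PA2G4 and ZC3H10, where the later assembly has RPL41, a small protein of the large ribosomal subunit, as the only gene. RPL41 belongs to a family with near-identical copies, among which reads can be divided.

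XLOC_002274, at chrA2:1453130-1455446, stood at 711 and 694 FPKM at the position of OAZ1, the inhibitor of ornithine decarboxylase. XLOC_000696, at chrA1:204836044-204841147, stood at 260 and 297 FPKM at that of SELENOP, the plasma carrier of selenium. XLOC_005240, at 327 and 206 FPKM, was listed with the interval of AGBL5 at chrA3:120853260-120872449, where OST4, a subunit of the oligosaccharyltransferase, is the missing coding gene. XLOC_028780 on chromosome F1, at 284 and 314 FPKM between CENPL and ZBTB37, had 12 genes between its flanks and no coding gene missing from the table among them. Of the 10 highest, 3 were on scaffolds: XLOC_030582 at 793 and 1273 FPKM, XLOC_024202 at 232 and 350 FPKM, and XLOC_030523 at 50.5 and 494 FPKM.

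Over all unnamed loci, both flanks were found in the later assembly for 6486 of 7340. A coding gene that no locus of the table was named for lay between the flanks of 33.8% of those under 1 FPKM in both libraries (1635 of 4832, 95% Wilson interval 32.5 to 35.2%). The share was 43.3% of those with at least 1 FPKM, 56.0% of those with a mean of at least 5 FPKM (225 of 402, 51.1 to 60.7%) and 72.8% of those with a mean of at least 20 FPKM (91 of 125, 64.4 to 79.8%). A long noncoding RNA lay between the same flanks for 77.5% of those under 1 FPKM, 77.7% of those with at least 1 FPKM, 72.4% of those averaging 5 FPKM or more and 65.6% of those averaging 20 FPKM or more. The share with a missing coding gene was thus larger in the classes of higher level, and the share with a long noncoding RNA was smaller in the highest classes. Loci between the same flanks count separately in these shares, and the intervals cover counting error only. Genes renamed since the annotation was made may remain among the missing ones. So may genes whose locus in the table is named by an Ensembl identifier alone, since such identifiers were not matched to symbols.

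**Figure D1:**
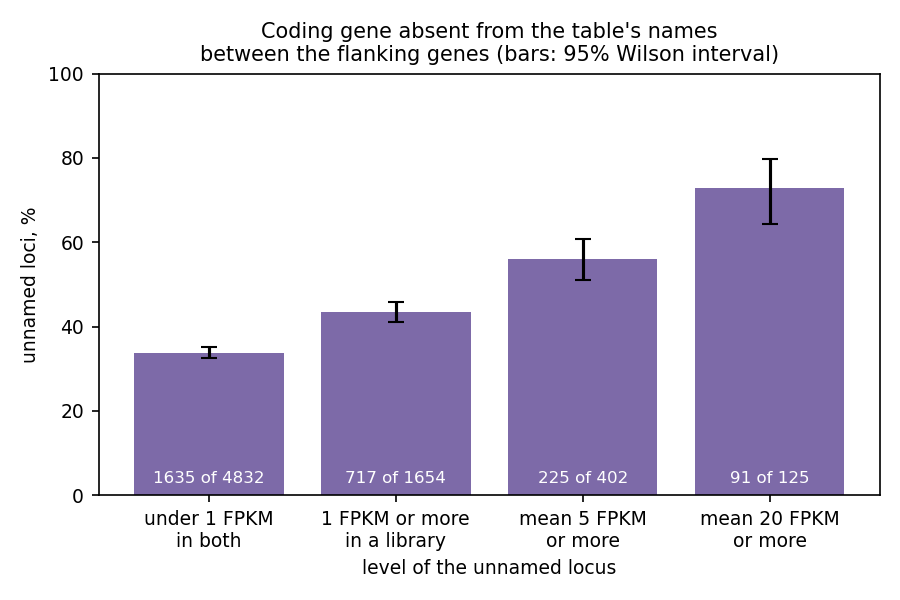
Percentage of unnamed loci (y axis) whose flanking genes enclose, in the gene order of a later assembly, a coding gene that no locus of the table was named for, in 4 classes of expression level (x axis), of which the last is part of the third and the third part of the second. Bars show the share with its 95% Wilson interval and the counts behind it. The share was 33.8% for loci under 1 FPKM in both libraries and 72.8% for those averaging 20 FPKM or more.

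Where a single coding gene was missing between the flanks, several others of these loci were well expressed. They were singled out after their values were seen. XLOC_010009, at chrB2:104845189-104846695, was at 185 FPKM in normal and 48.7 FPKM in affected (log2 ratio −1.91). MARCKS, a membrane-bound substrate of protein kinase C, is the missing gene between LAMA4 and HDAC2. XLOC_014114, at chrB4:128146723-128150329, was at 63.7 and 26.9 FPKM (−1.21) at the position of CKAP4, a membrane protein of the endoplasmic reticulum. XLOC_004245, at chrA2:13170941-13173501, was at 17.6 and 40.5 FPKM (1.16) at that of JUND, a transcription factor of the AP-1 family. Loci named for immediate early genes, which include AP-1 factors, were at least 2-fold higher in 11 of 17 cases and at least 2-fold lower in 0.

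Some of these positions were those of genes known for their part in the eye. They were looked for after the values had been seen, among the 213 genes of the lists for ocular cell types and processes. For 17 of these genes no locus of the table carried their symbol, current or older. Unnamed loci lay between the flanks of 10 of them, and unnamed loci averaging at least 5 FPKM between those of 6.

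At the position of ELN, which encodes elastin, lay XLOC_027421 at chrE3:10151415-10182865. It stood at 180 FPKM in normal and 78.9 FPKM in affected, a log2 ratio of −1.18. ELN is the only coding gene missing from the table between its flanks TMEM270 and LIMK1, and LIMK1, a kinase gene 10550 bases away, was at 14.9 and 5.59 FPKM (log2 ratio −1.27). Both values of the unnamed locus were thus far above those of its neighbour, with a similar ratio. Loci named for microfibril and zonule genes summed to 1544 and 2324 FPKM, with 5 of 16 at least 2-fold higher and 2 at least 2-fold lower. Their median log2 ratio was 0.11, and MFAP2 was listed at 0 in normal. Of 13 loci named for stroma and sclera genes, 10 were at least 2-fold lower and 1 higher, and the part of this in the value at the ELN position was not tested.

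XLOC_023005, at chrD4:34048636-34061635, lay at the position of MLANA, a melanosome protein of pigment cells. It was at 218 FPKM in normal and 93.0 FPKM in affected, a log2 ratio of −1.22. Loci named for the pigment cell genes summed to 2400 and 1663 FPKM, with 0 of 9 higher and 2 lower by the 2-fold criterion.

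Loci at the positions of photoreceptor genes were expressed too. XLOC_011412, at chrB3:76054870-76058497, was at 172.2 and 192.5 FPKM. The only gene between its flanks CPNE6 and PCK2 is NRL, a transcription factor of rods, and the log2 ratio was 0.16. XLOC_011880, at chrB3:36102609-36106323, was at 9.45 and 2.92 FPKM (log2 ratio −1.41), at the position of NR2E3, another transcription factor of rods. It lay 85 bases from a locus named for THSD4 that went from 6.52 to 1.40 FPKM (log2 ratio −1.65). Of the loci named for photoreceptor genes, 14 of 16 were at least 2-fold higher in affected and 0 lower. Whether the reads of either unnamed locus came from the gene at its position was not tested.

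XLOC_029097, at chrF1:67548385-67553920, was at 22.7 and 31.2 FPKM where the later assembly has LENEP, a lens epithelial protein gene, alone between ZBTB7B and FLAD1. XLOC_005718, on the interval chrA3:67085773-67100720, was at 21.7 and 36.9 FPKM, beside SIX2 and at the position of SIX3, a homeobox gene of the forebrain and eye. It shared that interval with ENSFCAG00000024258, which was at 68.9 and 124 FPKM. Their log2 ratios were 0.74 and 0.83.

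The 373 unnamed loci without any named locus on their sequence were a case of their own. All 369 named loci of scaffolds and of the mitochondrial genome were listed under a second set of sequence names, and all 369 were at 0 in both libraries. No named locus was listed under the names that carried the unnamed loci. When both names of a scaffold were joined, 180 of the 373 overlapped 126 named loci. The overlapping loci had medians of 5.50 and 5.82 FPKM, and the others 0.403 and 0.570 FPKM. Of the 117 with a mean of at least 5 FPKM, 95 overlapped a named locus. Named loci at 0 under one set of names thus lay where expressed unnamed loci lay under the other.

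One scaffold of chromosome C1 carried 61 unnamed loci, of which 39 reached 1 FPKM and 49 overlapped a named locus. Of the 39, 5 were at least 2-fold higher in affected and 0 lower, with a median log2 ratio of 0.00. At that level, 13.5% of all unnamed loci were higher and 9.37% lower, against 8.14% and 8.75% of all loci. XLOC_017023 overlapped GNB1, a G protein beta subunit, and was at 107 FPKM in normal and 325 FPKM in affected. XLOC_017011 overlapped MXRA8, a matrix remodelling protein, at 83.6 and 177 FPKM. Both were higher in affected by the 2-fold criterion, with log2 ratios of 1.59 and 1.07. XLOC_016988 overlapped ISG15, an interferon-induced ubiquitin-like protein, at 15.2 and 81.1 FPKM (log2 ratio 2.34). XLOC_016989 overlapped AGRN, a basement membrane proteoglycan, and hardly differed between the libraries, at 53.8 and 51.9 FPKM. On another scaffold, XLOC_018620 overlapped GNB4, another G protein beta subunit, at 15.3 and 2.04 FPKM (log2 ratio −2.42).

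Between the libraries, 276 of the 2039 unnamed loci with at least 1 FPKM in a library were at least 2-fold higher in affected (13.5%), where 8.14% of all 16676 loci at that level were. At least 2-fold lower were 191 (9.37%), where 8.75% of all loci were. The median log2 ratio of the unnamed loci was 0.12, against −0.02 for named loci and 0.05 for unnamed loci under 1000 bases. At a 4-fold difference the shares were 1.62% higher and 1.28% lower among unnamed loci, against 1.68% and 1.79% of all loci, so that their larger share was not seen there. In tissue made of many cell types, fewer cells of a type and less RNA per cell cannot be told apart.

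The shares were also compared at matched levels. At a mean of 1 to 2 FPKM, 14.8% of 620 unnamed loci were higher and 8.06% lower, against 5.41% and 13.7% of 1147 named loci. At 2 to 5 FPKM, 16.2% of 456 unnamed loci were higher and 10.7% lower, against 5.93% and 13.9% of 2293 named loci. At a mean of 5 to 20 FPKM, 10.9% of 376 unnamed loci were higher and 9.84% lower, against 5.93% and 6.82% of 5634 named loci. At a mean of at least 20 FPKM, 14.7% of 177 unnamed loci were higher and 8.47% lower, against 8.87% and 5.15% of 4196 named loci. The share higher was larger among unnamed loci in all 4 classes. The share lower was smaller among them under 5 FPKM and larger from 5 FPKM on.

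**Figure D2:**
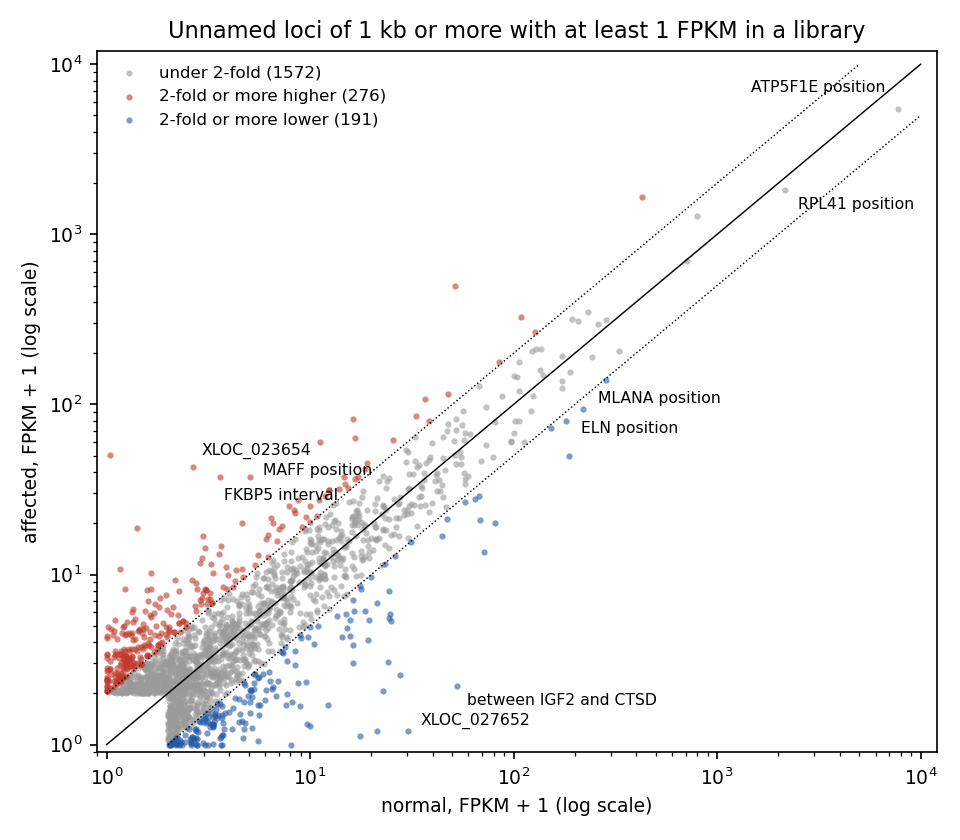
FPKM + 1 in normal (x axis, log scale) and in affected (y axis, log scale) for each of the 2039 unnamed loci with at least 1 FPKM in a library, 1 point per locus. The solid line marks equal values and dotted lines a 2-fold difference on this scale. Red points are the 276 loci at least 2-fold higher and blue points the 191 at least 2-fold lower in affected, and some loci named in the text are labelled by their identifier or by the gene at whose position, in whose interval or between which they lie.

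Where the mean reached 5 FPKM or more, XLOC_030646 had the highest log2 ratio, 5.61. It lay on an unplaced scaffold, overlapped ENSFCAG00000030446, and was at 0.0366 FPKM in normal and 49.7 FPKM in affected. The normal value stood for at most 2.21 fragments, so that the size of the ratio rested on the affected library. XLOC_030523, on another unplaced scaffold, overlapped ENSFCAG00000005611 and went from 50.5 to 494 FPKM (log2 ratio 3.26).

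Several of the others lay in or beside genes that were themselves higher in affected. XLOC_009310 was listed with the interval of FKBP5, a glucocorticoid-induced cochaperone, at chrB2:36898503-37041855. It was at 2.60 FPKM in normal and 36.3 FPKM in affected, a log2 ratio of 3.37, and FKBP5 went from 28 to 135 FPKM (2.23). XLOC_020392, at chrD1:59278750-59282046, was at 0.405 and 17.9 FPKM (3.75). It lay 296 bases from SLCO2B1, an organic anion transporter gene, which was at 0.115 and 2.79 FPKM (1.77). XLOC_012189, at chrB3:139401377-139409487, went from 1.99 to 15.9 FPKM (2.50), 1915 bases from SYNE3, a nuclear envelope protein gene that went from 2.18 to 15.4 FPKM (2.37). XLOC_004217 shared the interval chrA2:8844667-8849489 with BEST2, a chloride channel gene. It was at 2.05 and 13.3 FPKM (2.23), and BEST2 at 21.4 and 115 FPKM (2.37).

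XLOC_012940, at chrB4:134102810-134112649, was at 4.09 and 36.5 FPKM (log2 ratio 2.88) at the position of MAFF, a small transcription factor of the Maf family. Its neighbour TMEM184B, 641 bases away, was at 2.60 and 21.7 FPKM (2.66). XLOC_014409, at chrC1:19394655-19400093, was at 10.1 and 59.3 FPKM (2.44) at the position of TRNP1, a nuclear regulator of neural progenitor cells, while FAM46B, 3155 bases away, was at 9.54 and 10.4 FPKM (0.12). The second locus thus differed between the libraries where its named neighbour did so by little. XLOC_023654, at chrD4:72493435-72510943, was at 1.66 and 41.9 FPKM (4.01), between PTPN3 and C9orf152, where PALM2AKAP2 is missing from the table and 8 long noncoding RNAs also lie. The nearest named locus, ENSFCAG00000029149, 12720 bases away, was at 1.89 and 7.25 FPKM (1.51).

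Of the loci lower in affected, XLOC_027652 had the lowest ratio. It shared the interval chrE3:41959854-42007467 with ENSFCAG00000024584 and was at 29.3 FPKM in normal and 0.197 FPKM in affected, a log2 ratio of −4.66, where ENSFCAG00000024584 was at 54.8 and 0.439 FPKM (−5.28). XLOC_019419, at chrD1:115370003-115371451, was at 51.7 and 1.20 FPKM (−4.58). It lay between IGF2, a growth factor gene, and CTSD, a lysosomal protease gene, and CTSD went from 356 to 834 FPKM (1.23), in the opposite direction. LSP1 is the only coding gene missing from the table between these flanks. The log2 ratio of the unnamed locus minus that of CTSD was −5.81, the largest difference between an unnamed locus and its neighbour, both with a mean of at least 5 FPKM.

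XLOC_029875, at chrF2:81214724-81221807, was at 16.6 and 0.127 FPKM (−3.97). It lay in the cluster of LY6 genes, between LYPD2 and GML, where SLURP2, LY6D and LY6K are missing from the table. LY6D is known as a marker of stratified epithelium. XLOC_008575, at chrB2:32438321-32443806, was at 11.2 and 0.719 FPKM (−2.83), at the position of MUC21, an epithelial mucin. Named genes of the corneal and conjunctival epithelium were lower too, 12 of 15 by at least 2-fold and 1 higher, and the part of this list in either value was not tested.

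Low ratios were also found for XLOC_030748 on an unplaced scaffold, overlapping ENSFCAG00000004650, at 20.4 and 0.210 FPKM (−4.14), and XLOC_003839 on chromosome A2, 31857 bases from FERD3L, at 23.1 and 2.06 FPKM (−2.98). XLOC_010790, at chrB3:115137044-115140455, was at 26.8 and 1.58 FPKM (−3.43), 1247 bases from RDH12, a retinol dehydrogenase gene of photoreceptors, which was at 5.54 and 8.27 FPKM (0.50). RAD51B is the only coding gene missing from the table between its flanks ZFYVE26 and ZFP36L1.

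A named locus lay on the same sequence for 6967 of the unnamed loci. The median distance to the nearest one was 4984 bases with loci on the interval of a named locus counted as 0, and 8009 bases (quartiles 2073 and 32520) without them. The interval of a named locus was shared by 14.7% of unnamed loci, and 28.2% of named loci overlapped another named locus. A further 1035 unnamed loci (14.1%) lay under 1 kb from a named locus, as did 9.72% of named loci from another one. A further 1379 lay 1 to 5 kb away, 1529 from 5 to 20 kb, 1338 from 20 to 100 kb and 608 at 100 kb or more. Apart from loci sharing an interval, only 10 lay within 50 bases of a named locus, while 162 lay from 50 to under 100 bases away. The share that reached 1 FPKM was 27.7% for loci on the interval of a named locus, 34.7% under 1 kb, 22.0% at 1 to 5 kb, 24.6% at 5 to 20 kb, 25.3% at 20 to 100 kb and 21.7% beyond. Apart from the higher share under 1 kb, it had no steady order with distance.

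**Figure D3:**
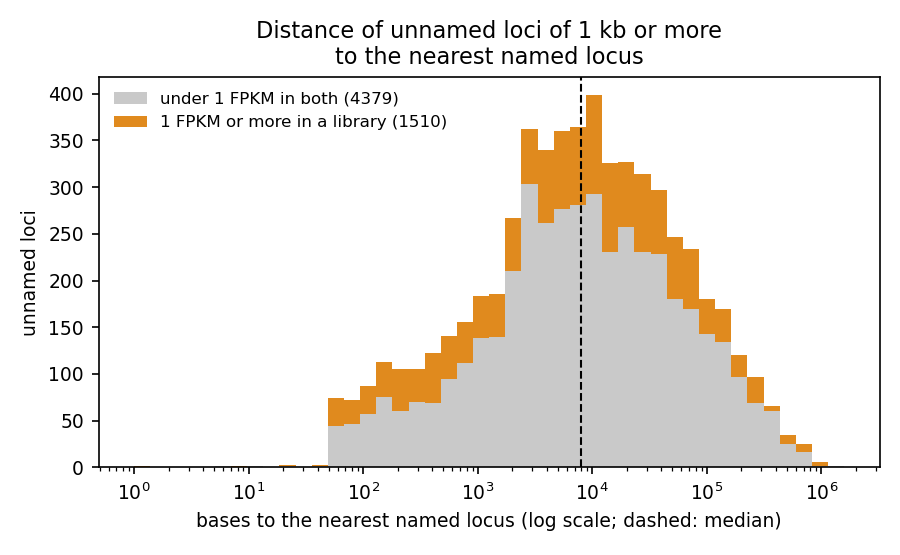
Number of unnamed loci (y axis) by their distance in bases to the nearest named locus (x axis, log scale), for the 5889 that do not share an interval with one. Grey bars count the 4379 loci under 1 FPKM in both libraries and orange bars, stacked on them, the 1510 with at least 1 FPKM in a library. The dashed line marks the median of 8009 bases, and few loci lie within 50 bases.

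The unnamed loci had 4050 different nearest named loci, of which 2573 had a single one and 187 had 5 or more. TSSC1 had 15, CPZ, a carboxypeptidase gene, had 14, and MYCN, ID2 and CADM1 had 12 each. MYCN and ID2 encode transcriptional regulators. The farthest were XLOC_005318 and XLOC_006551, at 1146434 and 917294 bases from CMPK2 on chromosome A3, at 0.355 and 0.0889 FPKM and at 1.33 and 0.269 FPKM, and XLOC_001590 on chromosome A1, at 937192 bases from ENSFCAG00000025469, at 0.0792 and 0.564 FPKM.

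In 1500 pairs both the unnamed locus and its nearest named locus reached 1 FPKM in a library. Across these pairs Pearson r of the log2 ratios was 0.32, Spearman rho was 0.32, and they had the same sign in 905 pairs (60.3%, 95% Wilson interval 57.8 to 62.8%). For 10224 named loci and their nearest other named locus, r was 0.18, rho 0.13 and the share with the same sign 54.3%. All pairs rested on the same 2 libraries, and several unnamed loci could share a neighbour, so these values describe the pairs and are no test. The levels of the pairs were barely related, with r = 0.04 for log2(mean FPKM + 1), and the unnamed locus was above its neighbour in 18.9% of pairs.

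By r the relation was closest for the nearest pairs. For the 275 unnamed loci on the interval of a named locus r was 0.56, and 0.50 without XLOC_027652, but the signs were the same in 61.1%, close to the share over all pairs. For 3039 named loci that overlapped another named locus r was 0.29, with the same sign in 59.6%. For the 327 at less than 1 kb r was 0.55, with the same sign in 67% (61.7 to 71.8%). For the 1423 named loci within 1 kb of another named locus r was 0.09, with the same sign in 52.2% (49.6 to 54.8%). At 1 to 5 kb r was 0.33 in 258 pairs, with the same sign in 61.2%, and named loci had an r of 0.10. At 5 to 20 kb it was 0.05 in 284 pairs, and 0.14 for named loci. It was 0.24 at 20 to 100 kb in 267 pairs and 0.26 beyond in 89 pairs, so that it did not fall further with distance.

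**Figure D4:**
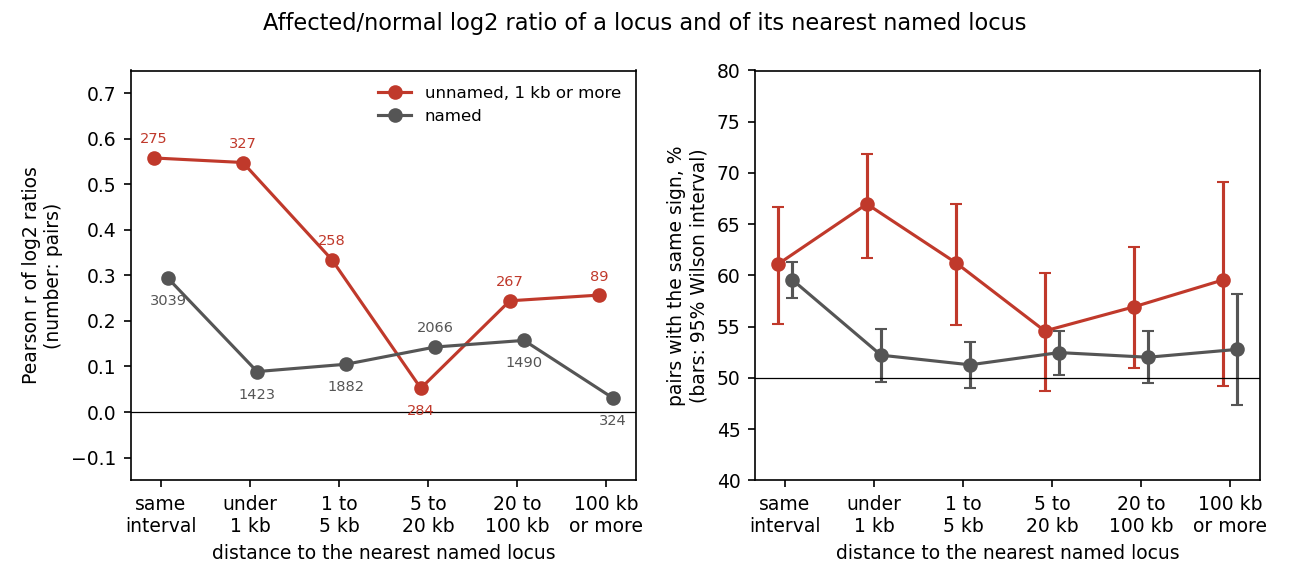
Left, Pearson r between the log2 ratio of a locus and that of its nearest named locus (y axis) by the distance between them (x axis), for unnamed loci (red) and for named loci (grey), with the number of pairs at each point. Right, the percentage of pairs with the same sign, with 95% Wilson intervals that cover counting error only. Within 1 kb r was 0.55 for unnamed and 0.09 for named loci.

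Neighbours were also compared for the loci past the 2-fold criterion. Of 217 unnamed loci at least 2-fold higher in affected, 47 had a neighbour at least 2-fold higher (21.7%), against 7.87% of all neighbours, and 7 had one at least 2-fold lower. The neighbour had a log2 ratio above 0 for 141 of the 217. Of 125 unnamed loci at least 2-fold lower, 35 had a neighbour at least 2-fold lower (28%), against 7.53% of all neighbours, and 4 had one at least 2-fold higher. The neighbour had a log2 ratio below 0 for 91 of the 125. Most unnamed loci past the criterion thus had a neighbour that was not.

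**Figure D5:**
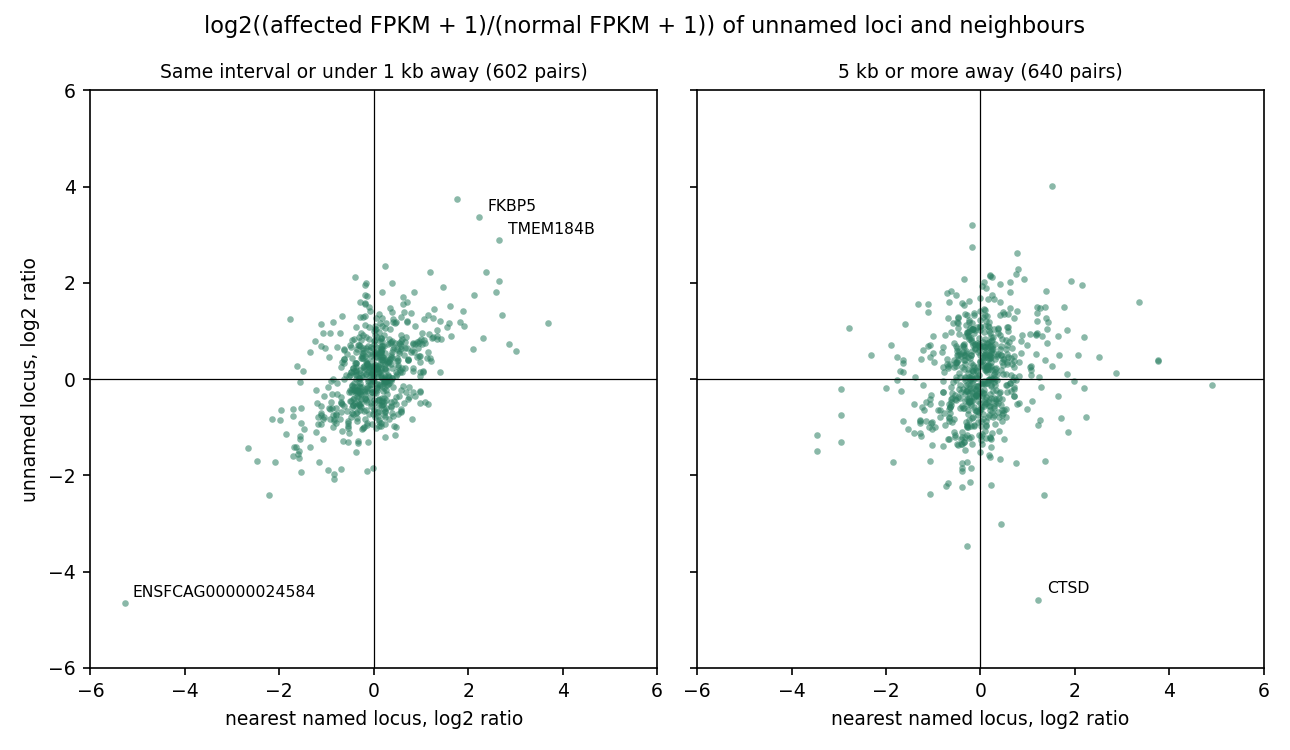
Log2 ratio of the nearest named locus (x axis) and of the unnamed locus (y axis), 1 point per pair, for 602 pairs on the same interval or under 1 kb apart (left) and 640 pairs at least 5 kb apart (right). Labels on some points give the name of the neighbour. The near pairs spread along the diagonal (r = 0.55), and the far pairs less so (r = 0.15), with the locus beside CTSD far from it.

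Besides those beside CTSD and RDH12, the pairs that differed most included those of XLOC_021625 and XLOC_016254. XLOC_021625, at chrD2:70402386-70403905, was at 6.29 and 8.56 FPKM, 31284 bases from SHOC2, a scaffold protein of the Ras pathway, which was listed at 0 in normal and at 12.6 FPKM in affected. ADRA2A is the only coding gene missing from the table between its flanks SHOC2 and GPAM. XLOC_016254, at chrC1:218685388-218686389, was at 67.3 and 19.9 FPKM (log2 ratio −1.71) at the position of HES6, a basic helix-loop-helix factor. PER2, a gene of the circadian clock, lay 5095 bases away and was at 3.14 and 9.64 FPKM (1.36).

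Some unnamed loci had a gene of the ocular lists as their nearest named locus. In 18 such pairs both loci reached 1 FPKM, and in 14 of these the signs were the same (77.8%), against 60.3% of all pairs. The pairs are few and some share the neighbour OTX2, and the difference was not tested. Of these 18, 7 lay next to patterning transcription factors, with the same sign in 6, and 5 next to lens genes, with the same sign in 3. Next to OTX2, a homeobox gene of the eye at 84.2 FPKM in normal and 63.4 FPKM in affected, lay XLOC_010733 at 8.47 and 4.05 FPKM and XLOC_011530 at 4.35 and 2.71 FPKM, which shared 1 interval. XLOC_012053, on the interval of OTX2 itself, was at 4 and 5.33 FPKM. On the interval of LHX2, another homeobox gene, at 167 and 215 FPKM, XLOC_023724 was at 1.02 and 1.78 FPKM.

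Beside crystallin genes the directions were mixed. XLOC_021850, 17691 bases from CRYBA4, was at 7.90 and 0.685 FPKM (log2 ratio −2.40), while CRYBA4 went from 2428 to 6128 FPKM (1.34). XLOC_016876, 23617 bases from CRYBA2, was at 0.813 and 5.44 FPKM (1.83), with CRYBA2 at 1812 and 4733 FPKM (1.38). XLOC_016152, 362 bases from CRYGD, was at 0.374 and 1.08 FPKM (0.60), with CRYGD at 19.3 and 164 FPKM (3.02).

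The other lists had 1 such pair each or none. The pair of FOXC1 is on the lists of both the trabecular meshwork and the patterning factors, and counts once among the 18. XLOC_009207 lay 2532 bases from FOXC1, a transcription factor of anterior segment development, and was at 1.56 and 0.637 FPKM (−0.65), with FOXC1 at 28.7 and 8.94 FPKM (−1.58). XLOC_011953 lay 638 bases from FBN1, the microfibril protein fibrillin 1, and was at 0.370 and 1.11 FPKM (0.62), with FBN1 at 55.8 and 242 FPKM (2.1). XLOC_017671, on the interval of the endothelial factor ERG, was at 1.72 and 0.0101 FPKM (−1.43), with ERG at 16.1 and 1.70 FPKM (−2.66). In these 3 pairs the unnamed locus had the direction of its neighbour and the log2 ratio of smaller size. The pseudocount of 1 FPKM understates the differences of such low loci. By the FPKM values themselves, XLOC_017671 fell by a larger factor than ERG.

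XLOC_021429 lay 3130 bases from ACTA2, smooth muscle actin, and was at 0.349 and 1.79 FPKM (1.05), with ACTA2 at 600 and 699 FPKM (0.22). XLOC_029201, 64339 bases from the glutamine synthetase gene GLUL, was at 0.470 and 1.01 FPKM (0.45), with GLUL at 347 and 1981 FPKM (2.51). XLOC_021014, 288537 bases from the proliferation marker MKI67, was at 1.86 and 1.52 FPKM (−0.18), with MKI67 at 4.31 and 0.325 FPKM (−2.00). The signs were the same in these 3 pairs. XLOC_017475, 9214 bases from ZIC1, a zinc finger factor, differed in sign from it, at 2.19 and 1.27 FPKM (−0.49) against 18.6 and 33.8 FPKM (0.83).

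The values on either side of the limit of 1000 bases were as follows. Among the 6 loci of exactly 1000 bases, XLOC_004378 was at 0.0171 FPKM in normal and 0.216 FPKM in affected, which corresponded to 1 and 12 fragments at the fitted depth. XLOC_006109 was at 0.307 and 0.0360 FPKM and XLOC_010162 at 0.0341 and 0.216 FPKM. Just outside, at 999 bases, XLOC_006116 was at 0.0854 and 0.180 FPKM, XLOC_025521 at 0.444 and 0.162 FPKM and XLOC_029820 at 3.10 and 2.24 FPKM.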

How the data were processed

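The deposited table gave FPKM values for 2 libraries, 1 per condition, made by the authors, per the submitters' processing notes, with TopHat2 2.0.9 on felCat5 with Ensembl gene predictions, Cufflinks 2.1.1 and cummeRbund. The kit (TruSeq RNA v2) does not mark strand. Unnamed loci and the gene lists were chosen with earlier results of these data known. Starts in the table count from 0 and are printed from 1. Distances are bases between listed intervals, and the nearest named locus was taken on the same sequence. Log2 ratios used a pseudocount of 1 FPKM, which understates the differences of low loci, with at least 1 FPKM in a library for counts and pairs. With 1 library per condition no test was made. Loci named in the text were the 10 highest means, the 10 highest and 10 lowest log2 ratios among loci averaging at least 5 FPKM, the 5 largest differences from the neighbour, the 3 longest, the 3 farthest, 3 on either side of 1000 bases, and up to 4 next to the genes of each list. The remaining ones (loci at the positions of missing list genes or of a single missing gene, and those on joined scaffolds) were chosen after their values were seen. A few loci that meet these criteria are not reported here.

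Gene order was read from the RefSeq table of F.catus_Fca126_mat1.0, taking up to 5 named loci on each side and at most 25 genes between them, after pairing older with current symbols by hand. The fit of fragment steps, the neighbour search and the correlations were tested on simulated data. Python 3.11.15, pandas 2.3.3 and scipy 1.17.1 were used. Alternatives varied the pseudocount, scaling, minimum level, span, kind of neighbour and excluded loci.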

Additional observations from a re-analysis of the deposited data

How the results depend on the processing

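No paired analysis was possible because there was 1 library for each condition. Of 53 recalculations, 41 stayed close to the value given: counts and distances within 1.5 times, r within 0.05, the median log2 ratio within 0.1, and the share with the same sign within its Wilson interval. The count of loci at least 2-fold higher in affected, 276, became 501 with a pseudocount of 0.1 FPKM, 67 for loci averaging at least 5 FPKM and 33 with a 4-fold threshold, and the count lower, 191, became 372, 52 and 26. Fewer loci entered with the higher minimum. With the pseudocount of 0.1 FPKM, 24.6% of unnamed loci were higher and 18.2% lower, against 11.9% and 13.0% of all loci. Averaging at least 5 FPKM, the shares were 12.1% and 9.40%, against 7.62% and 6.46%. At 4-fold they were 1.62% and 1.28%, against 1.68% and 1.79%, so that the larger share of unnamed loci was not seen there. The r of 0.32 was 0.45 where both loci averaged at least 5 FPKM, 0.21 with no minimum, 0.24 with neighbours that do not overlap, 0.26 with neighbours named by a symbol and 0.26 without loci on the interval of a named locus, and the cause was not tested. The median distance of 4984 bases was 7497 bases to loci named by a symbol, which are fewer. The share with the same sign stayed between 58.1 and 61.4%, and the median log2 ratio between 0.09 and 0.15. Joining scaffold names, chosen after seeing the data, gave a median distance of 4601 bases, and leaving out scaffolds, also chosen then, gave 247 loci higher and 171 lower.

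With 1 cat per condition, differences between cats, dissections and conditions cannot be told apart. At the fitted depth, one fragment on 1000 bases, counted after the fitted bases were taken off, was worth 0.0140 FPKM in normal and 0.0148 FPKM in affected, so the lowest values rested on few fragments. For loci that share an interval, or whose transcripts are spliced, the fragments behind a value are not known. The position of a gene between flanks in a later assembly does not show that the reads came from it.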
